A study of Homo sapiens with 12 samples.

Results

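The 9 genes described here, NGFR, CDH1, CDH2, VIM, FN1, ZEB1, TWIST1, WNT5A and JUN, are genes whose expression is used to place melanoma cells between a melanocytic, proliferative state and an invasive, dedifferentiated one. They are taken by name and no measured value enters the rule, but the set was proposed with earlier results of these data known. All 9 were found among the 35579 genes with transcripts in the files. The values came from WM-266-4, a human melanoma cell line. All 4 groups carried the same stable lentiviral knock-down of the receptor tyrosine kinase TYRO3, made with 1 shRNA, and were grown in puromycin, transfected with jetPRIME and kept without serum overnight before RNA was taken. The groups differed in the transfected pEZY-myc-his plasmid. The GFP group received a GFP plasmid by its labels, while the study speaks of a vector control. The WT group received wild-type TYRO3. The ΔGS group received TYRO3 with the substitution I449A, in the region cut by γ-secretase. The ΔADAM group received TYRO3 with P408A, L409P and G419P, in the region shed by ADAM proteases. Each group had 3 libraries, 1 from each of 3 experiments, of a single cell line and a single shRNA. Nothing in the labels says more about how far the experiments were separate cultures, so the p-values measure the spread between these libraries.

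Melanoma cells can move between states without a change in their DNA. In the melanocytic state, MITF drives pigment genes and proliferation. In the invasive or dedifferentiated state, MITF and E-cadherin are usually low, while the neurotrophin receptor NGFR, AXL, WNT5A, AP-1 factors such as JUN, and matrix genes are usually high. The transcription factors ZEB1, ZEB2, SNAI2 and TWIST1 take opposite sides in this lineage, ZEB2 and SNAI2 being expressed with the melanocytic programme and ZEB1 and TWIST1 with the invasive one. TYRO3 is a receptor of the TAM family that ADAM proteases and then γ-secretase can cleave, releasing its intracellular domain, and the variants addressed whether uncleaved TYRO3 has the same effect on transcription as the wild-type protein.

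The estimated counts summed to between 4008293 and 38184838 per library, the lowest in GFP of experiment 1 and the next lowest at 18365999. TYRO3, the gene knocked down and then supplied, was at 48.0 to 56.9 CPM (counts-per-million units) in GFP and at 1185 to 3666 CPM in the other 9 libraries, so each library matched its label as to whether TYRO3 was supplied; these counts do not tell the variants apart. CPM here is the count divided by the library total after TMM scaling. The melanocytic markers PMEL and SOX10 were expressed throughout, at 709 to 1256 and 213 to 388 TPM (transcripts-per-million units, which also divides by transcript length), and the summed TPM of all 8 melanocytic markers ranged from 1643 to 1989 in GFP, 1068 to 1987 in WT, 1096 to 1605 in ΔGS and 1103 to 1659 in ΔADAM. Of the markers of other cell types, 6 of the 7 of keratinocytes, 5 of the 6 of leukocytes, 4 of the 5 of endothelial cells and 3 of the 8 of fibroblasts had a mean below 1 TPM, KRT5 and KRT1 being listed at 0 in every library. The highest were KRT10 of the keratinocyte list, at 76.7 to 116 TPM, and LUM of the fibroblast list, at 36.2 to 84.5 and highest in GFP. KDR of the endothelial list, at 2.76 to 9.31 TPM, was higher in each TYRO3 library than in GFP of its experiment. The part of these markers in the results was not tested. The ΔGS library of experiment 3 stood apart by gene length: relative to the mean of its group, the 3015 genes with the longest transcripts lay 0.43 lower on the log2 scale than the 3019 with the shortest, against differences between -0.10 and 0.23 in the other 11 libraries.

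Within these cells the genes of the set spanned several orders of magnitude in level. By TPM, VIM was the most abundant with a mean of 2303 over the 12 libraries, from 1778 to 2611, followed by FN1 with 945, from 790 to 1069. CDH2 followed with 89.6, from 62.9 to 100.3, and TWIST1 with 21.5, from 17.1 to 24.3. The ranges of these 4 genes did not overlap. ZEB1 had a mean of 10.6 TPM, NGFR 6.68 and JUN 6.63, and their ranges, 4.54 to 14.5, 1.14 to 15.8 and 3.99 to 10.5, overlapped. CDH1 and WNT5A were lowest, with means of 1.21 and 0.424 TPM and overlapping ranges of 0.368 to 5.35 and 0.0124 to 0.839. The mesenchymal intermediate filament, matrix protein and cadherin were high and E-cadherin low in the GFP group already, with GFP means of 2045 ± 234 TPM for VIM, 866 ± 71.3 for FN1, 89.4 ± 9.86 for CDH2 and 2.40 ± 2.57 for CDH1 (SD, n = 3). The CDH1 mean was set by GFP of experiment 1, where its 5.35 TPM rested on 4 counts, 48.7% of them placed on the 282-base transcript CDH1-208.

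**Figure D1:**
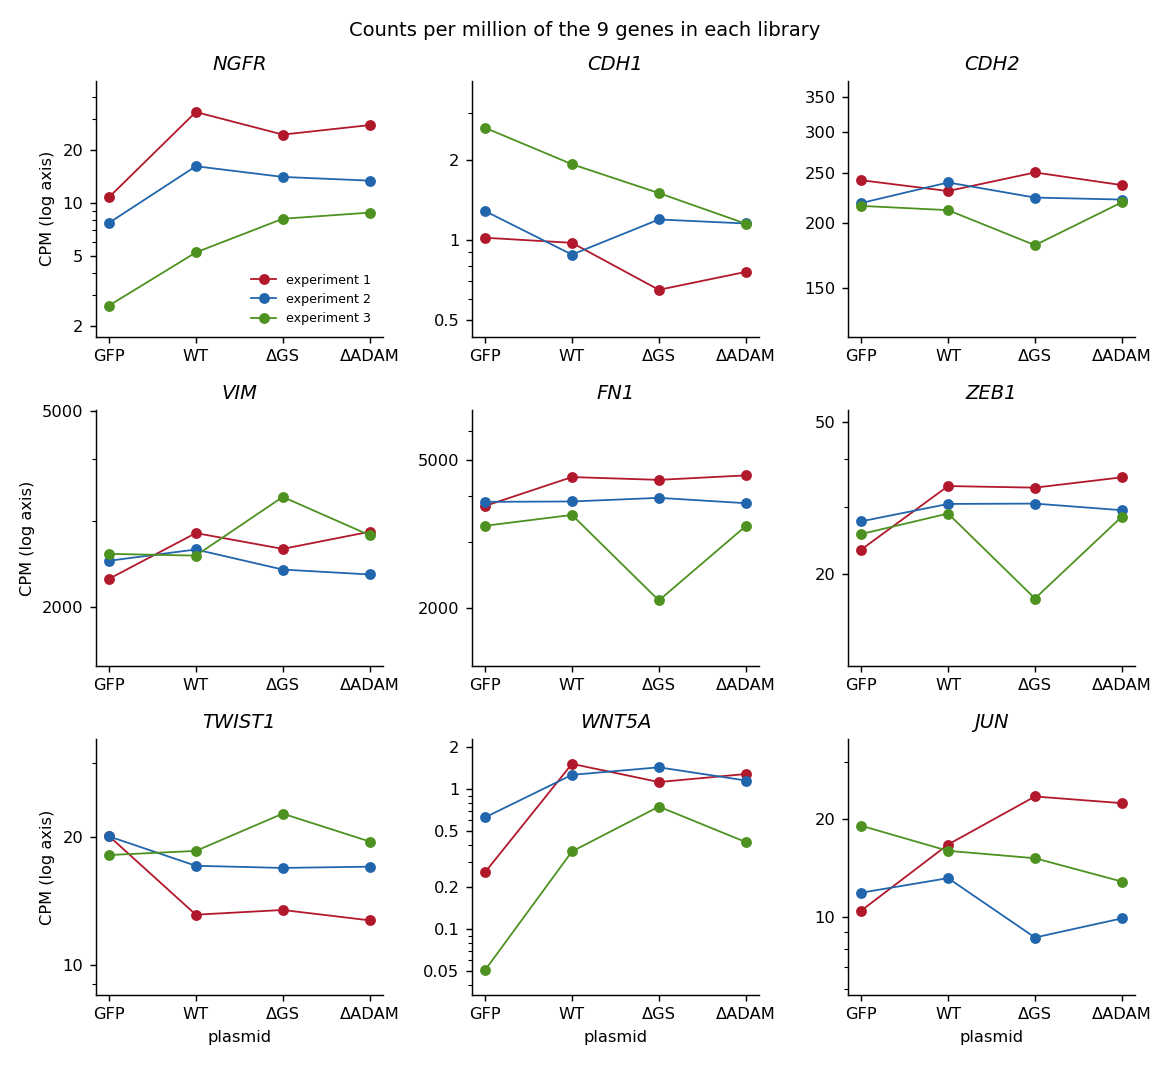
CPM (log axis, scaled per panel) of the 9 genes in the 12 libraries; each point is 1 library, and lines join the libraries of an experiment across the plasmids GFP, WT, ΔGS and ΔADAM. NGFR and WNT5A lie above the GFP point of their own experiment in all 9 TYRO3 libraries and CDH1 lies below it, while the other 6 genes have TYRO3 points on both sides of the GFP point of their experiment; FN1 (2092 CPM) and ZEB1 (17.3 CPM) are lowest in ΔGS of experiment 3.

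The set was compared between GFP and each TYRO3 group in edgeR's quasi-likelihood test, fitted to all 15098 genes that passed a filter on low counts. All 9 genes passed it. The fit had a batch term that sets experiment 1 apart from the other 2, a batch that the study corrected for by another method, and a gene was called where its fold change was over 1.5 and its Benjamini-Hochberg adjusted p at most 0.05. Libraries of the same experiment deviated together from their group means, so each result whose call changed is also given with a term for each experiment. No gene of the set was called in WT against GFP, ΔGS against GFP or ΔADAM against GFP with the batch term, where 0.0397%, 0.457% and 1.11% of all genes were called. At an unadjusted p under 0.05 stood 1 of the 9 in each comparison, NGFR, beside 15.2%, 19.2% and 20.4% of all genes, and DESeq2 with the batch term called 0 of the 9, where it called 2.49%, 4.03% and 4.44% of all genes. With a term for each experiment, 1, 2 and 1 of the 9 were called, all higher, where 2.35%, 4.69% and 5.19% of all genes were called. These were NGFR in each comparison and WNT5A in ΔGS. The 3 comparisons share the GFP libraries. In bulk RNA, fewer cells expressing a gene and less RNA per cell cannot be told apart. The sources used here do not say whether counting used strand, so for VIM, ZEB1 and WNT5A, which have annotated antisense genes (VIM-AS1, ZEB1-AS1 and WNT5A-AS1), reads of both strands may not have been told apart. The median log2 fold change of the 9 genes was 0.11 in WT, 0.02 in ΔGS and 0.08 in ΔADAM with the batch term, against -0.003, 0.010 and -0.002 over all genes.

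**Figure D2:**
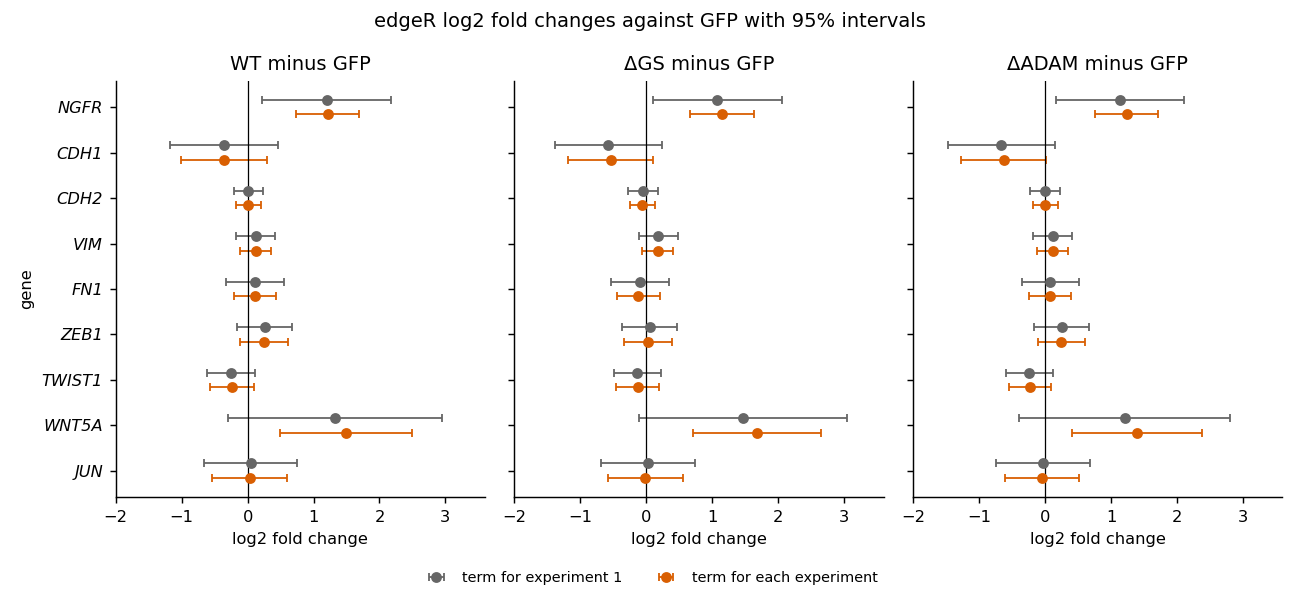
edgeR log2 fold changes of the 9 genes against GFP (points) with 95% intervals (bars) in WT, ΔGS and ΔADAM, from the fit with a term for experiment 1 (grey) and from the fit with a term for each experiment (orange), n = 3 libraries per group. The NGFR intervals lie above 0 in both fits and are narrower with a term for each experiment, and those of CDH2, VIM, FN1, ZEB1, TWIST1 and JUN span 0 in every panel.

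NGFR encodes the low-affinity neurotrophin receptor p75NTR, a marker of neural crest stem cells and of dedifferentiated melanoma cells (chromosome 17, 49495293 to 49515017, plus strand, GRCh38, GENCODE 29). It was higher in every TYRO3 library than in the GFP library of the same experiment. In experiments 1, 2 and 3, NGFR stood at 10.7, 7.66 and 2.60 CPM with GFP, from 42, 280 and 51 counts. It stood at 32.7, 16.1 and 5.21 CPM with WT TYRO3, at 24.3, 14.0 and 8.09 with ΔGS, and at 27.6, 13.3 and 8.77 with ΔADAM. In each group experiment 1 was highest and experiment 3 lowest, and the ranges of GFP and the other groups overlapped across experiments. Of all genes tested, 12.5% were likewise higher in all 9 within-experiment differences and 13.5% were lower in all 9. Nearly all NGFR counts, 99.6% or more in each library, were assigned to NGFR-201, a transcript of 6 exons.

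With the batch term the NGFR log2 fold changes were 1.20 ± 0.45 in WT, 1.08 ± 0.44 in ΔGS and 1.14 ± 0.44 in ΔADAM (SE), and the adjusted p-values of edgeR were 0.24, 0.22 and 0.18. With a term for each experiment the changes were nearly the same size, 1.21 ± 0.22, 1.15 ± 0.22 and 1.24 ± 0.22, with adjusted p-values of 0.018, 0.014 and 0.0091, and NGFR was called in all 3. Under that design the call in WT was lost without GFP of experiment 1 (adjusted p = 0.070), GFP of experiment 3 (0.056), WT of experiment 1 (0.10) or WT of experiment 2 (0.094). In ΔGS it was lost without GFP of experiment 1 (0.055) or 3 (0.054), and in ΔADAM without ΔADAM of experiment 3 (0.051). With any 1 library of the 12 omitted, the log2 fold change ran from 1.03 to 1.45 in WT, 1.00 to 1.39 in ΔGS and 1.06 to 1.47 in ΔADAM with a term for each experiment. With the batch term the ranges were wider, 0.81 to 1.79, 0.76 to 1.69 and 0.82 to 1.74.

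Among the other neurotrophin ligands, receptors and partners of NGFR, 11 genes of the list were tested with NGFR included, and their median log2 fold change was -0.02 in WT, -0.02 in ΔGS and -0.01 in ΔADAM. BDNF, a neurotrophin that binds NGFR in its precursor form, was the 1 gene of the list called with the batch term, in ΔADAM, where 0.616% of all genes were called higher. It stood at 20.7, 25.4 and 20.5 CPM in GFP of experiments 1 to 3 and at 40.3, 36.6 and 52.0 in ΔADAM, without overlap (log2 fold change 0.94 ± 0.17, edgeR adjusted p = 0.038). In WT and ΔGS its changes of 0.71 ± 0.17 and 0.87 ± 0.17 missed the threshold with that term (adjusted p = 0.12 and 0.052) and passed it with a term for each experiment (0.044 and 0.014). The call with the batch term held in 4 of the 12 fits that left out a library and was lost without GFP of experiment 1, 2 or 3 (0.19, 0.066 and 0.090), WT of experiment 2, ΔGS of experiment 1 or 2, and ΔADAM of experiment 1 or 3. Without GFP of experiment 1 and with a term for each experiment, BDNF was not called in WT (0.16) or ΔGS (0.053) and was called in ΔADAM. Under that design the BDNF calls in WT, ΔGS and ΔADAM held in 4, 10 and 11 of the 12 fits that left out a library. At an unadjusted p under 0.05 with the batch term stood 5, 5 and 5 of the 11, beside 15.2%, 19.2% and 20.4% of all genes. DESeq2 called 1 in each comparison, beside 2.49%, 4.03% and 4.44%. SORT1, the co-receptor sortilin, and MAGED1, an NGFR-binding adaptor, had log2 fold changes between -0.57 and -0.44 in the 3 comparisons and did not reach the fold threshold.

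WNT5A, the noncanonical WNT ligand of the invasive state (chromosome 3, 55465715 to 55490539, minus strand), was close to the limit of detection. It had 1, 23 and 1 counts in GFP of experiments 1, 2 and 3, 28, 23 and 8 in WT, 26, 36 and 17 in ΔGS, and 44, 26 and 12 in ΔADAM. In CPM this was 0.255, 0.629 and 0.0509 in GFP against 0.359 to 1.52 in the TYRO3 libraries, and each of the 9 TYRO3 libraries was higher than the GFP library of its experiment. Only experiment 2 had more than 1 WNT5A count in GFP, and there the ratio to GFP was 2.01 in WT (95% exact interval 1.08 to 3.76), 2.28 in ΔGS (1.31 to 4.03) and 1.83 in ΔADAM (1.01 to 3.37). In experiments 1 and 3 the 6 ratios lay between 4.41 and 14.8, with intervals whose lower bounds ran from 0.725 to 2.31 and whose upper bounds were all above 180. These intervals cover counting error only.

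With the batch term the WNT5A log2 fold changes were 1.33 ± 0.74, 1.47 ± 0.72 and 1.21 ± 0.73 in WT, ΔGS and ΔADAM, with edgeR adjusted p-values of 0.43, 0.30 and 0.38. With a term for each experiment they were 1.497 ± 0.45, 1.68 ± 0.44 and 1.40 ± 0.45 (adjusted p = 0.092, 0.041 and 0.070), so that ΔGS alone was called. That call held in 3 of the 12 fits that left out a library, those without GFP of experiment 2, WT of experiment 1 or WT of experiment 3, and was lost in the other 9, with adjusted p-values of up to 0.12. Without GFP of experiment 2 the ΔGS value was 2.96. The assignment of these counts to transcripts was unstable, WNT5A-202 taking from 0 to 100% of them and WNT5A-201 from 0 to 99.96%.

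To show where the letters recognised by ZEB and SNAI repressors lie near these genes, the 250 bases before the RefSeq start sites (GRCh38.p14) were searched on both strands for CACCTG, an E-box bound by these factors, TGANTCA of AP-1, CATTCC of TEAD and CACGTG of MITF. Start sites were matched for 6 of the 9 genes, CDH2, VIM, FN1, ZEB1, WNT5A and JUN. CACCTG was found in 2 of them, ZEB1 and WNT5A, and none of the other motifs in any, while 17.5%, 6.57%, 11.9% and 6.34% of all 35116 promoters held the 4 motifs in turn. In ZEB1 the match starts at -57 and in WNT5A at -204 from the start site. Both are shown 5′ to 3′ with the match in capitals, ZEB1 as the whole window at chr10:31318167-31318416 on the plus strand and WNT5A as 30 bases around the match at chr3:55487493-55487522 on the minus strand, which lie in the first exon of WNT5A-201 in GENCODE 29. A match is only a description of these letters. Only these exact letters were searched, so a window without a match may hold another form of a site.
ZEB1: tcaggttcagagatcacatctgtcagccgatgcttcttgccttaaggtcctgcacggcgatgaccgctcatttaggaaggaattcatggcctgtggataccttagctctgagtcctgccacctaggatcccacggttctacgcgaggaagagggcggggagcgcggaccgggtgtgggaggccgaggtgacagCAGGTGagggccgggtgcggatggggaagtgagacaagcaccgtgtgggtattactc
WNT5A: atgaactgggggCACCTGggcgcacagatc

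Of the WNT5A receptors and noncanonical partners, 19 genes were tested, WNT5A included, and edgeR called 0 with the batch term in any comparison with GFP, while 3, 4 and 5 had an unadjusted p under 0.05 in WT, ΔGS and ΔADAM, beside 15.2%, 19.2% and 20.4% of all genes, and DESeq2 called 0, 1 and 2, beside 2.49%, 4.03% and 4.44%. ROR1, a receptor kinase for WNT5A, was at 39.0, 31.3 and 29.8 CPM in GFP of experiments 1 to 3, at 15.2, 24.2 and 27.0 in WT, at 17.4, 20.8 and 12.6 in ΔGS and at 14.6, 22.2 and 18.9 in ΔADAM, lower than every GFP library in all 9. Its log2 fold changes were -0.59 ± 0.24, -0.96 ± 0.24 and -0.85 ± 0.24 with adjusted p-values of 0.27, 0.076 and 0.086, and with a term for each experiment it passed in ΔGS and ΔADAM (0.029 and 0.042) and not in WT (0.18). Among other losses, both calls were lost without GFP of experiment 1 (0.11 and 0.16), and that in ΔGS without ΔGS of experiment 3 (0.081). The ROR1 calls held in 7 fits for ΔGS and 4 for ΔADAM, of the 12 that left out a library. FZD6, a frizzled receptor, had values of 0.49 to 0.58 on the log2 scale, and its adjusted p of 0.048 in ΔADAM came with a fold change just under the threshold. DVL2, an intracellular transducer of frizzled signals, had values between -0.42 and -0.31.

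JUN, the AP-1 subunit linked to dedifferentiation (chromosome 1, 58780788 to 58784327, minus strand), had no common direction across the experiments. It stood at 10.5, 11.9 and 19.1 CPM in GFP of experiments 1, 2 and 3, at 16.7, 13.2 and 16.0 in WT, at 23.5, 8.65 and 15.2 in ΔGS and at 22.4, 9.90 and 12.9 in ΔADAM. Experiment 1 was higher with each TYRO3 plasmid than with GFP, whereas experiment 3 was lower with each, and all groups overlapped. The log2 fold changes with the batch term were 0.05 ± 0.32, 0.02 ± 0.32 and -0.03 ± 0.32, with 95% intervals reaching from -0.75 to 0.76 over the 3 comparisons, so that a 1.5-fold change in either direction lay within them. The values were -0.22, -0.27 and -0.32 without GFP of experiment 1.

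Among the other AP-1 and immediate early factors, calls by edgeR depended on the design. Of the 15 tested with JUN included, edgeR called 0 with the batch term, where 6, 8 and 9 had an unadjusted p under 0.05 and DESeq2 called 5, 6 and 5 in WT, ΔGS and ΔADAM. Over all genes 15.2%, 19.2% and 20.4% had such a p, and DESeq2 called 2.49%, 4.03% and 4.44%. With a term for each experiment edgeR called 0 in WT, 5 in ΔGS and 4 in ΔADAM, all higher, against 1.66%, 2.81% and 3.15% of all genes called higher. FOSL1, the FRA-1 subunit found in invasive cells, rose under that design in ΔGS (1.10 ± 0.26, adjusted p = 0.027) and ΔADAM (1.08 ± 0.26, 0.028), with 39.3, 40.7 and 44.6 CPM in GFP of experiments 1 to 3, 150.7, 67.6 and 88.6 in ΔGS and 163, 54.2 and 93.2 in ΔADAM, and no overlap. In WT it stood at 164, 72.9 and 57.6 CPM and its change of 1.00 ± 0.26 had an adjusted p of 0.057. FOSL2 was called in ΔADAM (0.78 ± 0.19, adjusted p = 0.029) and JUNB in ΔGS (0.88 ± 0.20, 0.024). BATF3 and ATF3 in both variants and EGR1 in ΔGS made up the rest and were named after their values were seen. Over the 12 fits that left out a library, the least stable of these calls, EGR1 in ΔGS, held in 3. The most stable, BATF3 in ΔGS, held in 10. Without GFP of experiment 1 none of the AP-1 list was called in either design, and without ΔGS of experiment 3 the numbers were 0, 0 and 2 with the batch term and 1, 1 and 4 with a term for each experiment.

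ZEB1 (chromosome 10, 31318495 to 31529814, plus strand) and TWIST1 (chromosome 7, 19020991 to 19117672, minus strand) encode transcription factors of the epithelial-mesenchymal transition, and neither was called in any comparison. ZEB1 stood at 23.2, 27.5 and 25.5 CPM in GFP of experiments 1, 2 and 3, at 34.1, 30.6 and 28.9 in WT, at 33.7, 30.6 and 17.3 in ΔGS and at 35.9, 29.4 and 28.3 in ΔADAM. All WT and ΔADAM libraries were above all GFP libraries, and in ΔGS the library of experiment 3 was the lowest of the 12. The log2 fold changes were 0.26 ± 0.19 in WT, 0.05 ± 0.19 in ΔGS and 0.25 ± 0.19 in ΔADAM (edgeR adjusted p = 0.57, 0.93 and 0.50), and without ΔGS of experiment 3 the ΔGS value was 0.28. They were 0.14, -0.074 and 0.14 without GFP of experiment 1.

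TWIST1 stood at 20.2, 20.1 and 18.2 CPM in GFP, at 13.1, 17.1 and 18.6 in WT, at 13.5, 16.9 and 22.8 in ΔGS and at 12.7, 17.1 and 19.6 in ΔADAM. It was lower with TYRO3 in experiments 1 and 2 and higher in experiment 3, so the groups overlapped, and the log2 fold changes of -0.25 ± 0.16, -0.14 ± 0.16 and -0.24 ± 0.16 had adjusted p-values of 0.52, 0.69 and 0.44. These became -0.058, 0.050 and -0.045 without GFP of experiment 1. Among the 9 transcription factors of this kind that were tested, edgeR called 0 with the batch term, while 2 had an unadjusted p under 0.05 and DESeq2 called 1 in each comparison with GFP. Over all genes 15.2%, 19.2% and 20.4% had such a p in WT, ΔGS and ΔADAM, and DESeq2 called 2.49%, 4.03% and 4.44%. SNAI2 and ZEB2, which accompany the melanocytic programme, had negative log2 values in the 3 comparisons. SNAI2 stood at 18.7 to 27.3 CPM in GFP and at 9.71 to 17.0 in the other 9 libraries, with log2 fold changes of -0.75 ± 0.22, -0.63 ± 0.22 and -0.78 ± 0.22 (adjusted p = 0.15, 0.15 and 0.081), and was called in ΔADAM with a term for each experiment (0.044). ZEB2 had log2 fold changes of -0.37 ± 0.15, -0.63 ± 0.15 and -0.49 ± 0.15 (0.26, 0.065 and 0.10), and was called in ΔGS with a term for each experiment (0.025). Without GFP of experiment 1 neither was called (0.12 for SNAI2 in ΔADAM and 0.10 for ZEB2 in ΔGS), and without ΔGS of experiment 3 ZEB2 fell short of the fold threshold in ΔGS, at -0.44. The SNAI2 call held in 4 and the ZEB2 call in 8 of the 12 fits that left out a library. PRRX1, a mesenchymal homeobox factor, had log2 fold changes of 0.25 to 0.36 that did not pass in either fit.

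Neither cadherin of the set was called. CDH1, E-cadherin, which ties melanoma cells to keratinocytes (chromosome 16, 68737225 to 68835548, plus strand), had 4, 47 and 52 counts in GFP of experiments 1, 2 and 3, and 15 to 43 in the TYRO3 libraries. In CPM it stood at 1.02, 1.29 and 2.65 in GFP, at 0.976, 0.882 and 1.93 in WT, at 0.650, 1.20 and 1.503 in ΔGS and at 0.759, 1.15 and 1.15 in ΔADAM, lower than the GFP library of the same experiment in 9 of 9. The ranges of the groups overlapped, and the counting interval of the ratio to GFP excluded 1 only in experiment 3, with ΔGS (0.568, 95% exact interval 0.357 to 0.892) and ΔADAM (0.436, 0.273 to 0.687). The log2 fold changes were -0.35 ± 0.37, -0.58 ± 0.37 and -0.67 ± 0.37 with edgeR adjusted p-values of 0.72, 0.44 and 0.34, and no alternative called it.

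CDH2, N-cadherin of mesenchymal cells (chromosome 18, 27950966 to 28177446, minus strand), differed little in mean between the groups. It stood at 216 to 242 CPM in GFP, 212 to 239.7 in WT, 181 to 251 in ΔGS and 219.5 to 237 in ΔADAM, all overlapping. The log2 fold changes were 0.01 ± 0.10, -0.06 ± 0.10 and 0.001 ± 0.10, and the 95% intervals stayed within -0.28 and 0.24, so a 1.5-fold change lay outside them. Of the 11 cadherins and catenins tested, edgeR called 0 with either design in the 3 comparisons with GFP, and DESeq2 called 0. With the batch term 2, 2 and 3 had an unadjusted p under 0.05, beside 15.2%, 19.2% and 20.4% of all genes. CTNNB1, the adhesion and WNT protein β-catenin, had log2 values of -0.35 ± 0.11, -0.43 ± 0.11 and -0.45 ± 0.11, with adjusted p-values of 0.028 in ΔGS and 0.023 in ΔADAM with a term for each experiment, at folds under the threshold. CDH19, a cadherin of the neural crest lineage, had log2 fold changes of 0.30 to 0.38.

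VIM, vimentin, the intermediate filament of mesenchymal cells (chromosome 10, 17228259 to 17237593, plus strand), and FN1, the matrix protein fibronectin (chromosome 2, 215360440 to 215436172, minus strand), had the most counts of the set, so sampling error was small and the spread between experiments set the precision. VIM stood at 2284, 2486 and 2568 CPM in GFP of experiments 1, 2 and 3, at 2830, 2621 and 2547 in WT, at 2628, 2386 and 3350 in ΔGS and at 2847, 2332 and 2801 in ΔADAM. The groups overlapped, with 6 of 9 TYRO3 libraries above their GFP library. The log2 fold changes were 0.12 ± 0.13, 0.18 ± 0.13 and 0.12 ± 0.13 (adjusted p = 0.73, 0.51 and 0.69), and their 95% intervals ended at 0.42, 0.48 and 0.41. Without ΔGS of experiment 3, its highest library, the ΔGS value was 0.015. INA, a neuronal intermediate filament, stood at 0.255 to 0.383 CPM in GFP and 0.673 to 2.66 in the TYRO3 libraries. It was the single call among the 11 filament genes with a term for each experiment, in ΔGS (1.57 ± 0.41, edgeR adjusted p = 0.040) and ΔADAM (1.58 ± 0.41, 0.036). With that term 4.69% and 5.19% of all genes were called in ΔGS and ΔADAM, 2.81% and 3.15% higher. The INA level in GFP of experiment 1 was a single count, and without that library it was not called (0.11 in both). Without ΔGS of experiment 3 it was not called in ΔGS (0.098), and its calls held in 2 and 5 of the 12 fits that left out a library. With the batch term edgeR called 0 of the 11, with 1, 2 and 3 at an unadjusted p under 0.05 and 1 called by DESeq2 in each comparison. Over all genes 15.2%, 19.2% and 20.4% had such a p, and DESeq2 called 2.49%, 4.03% and 4.44%. KRT18, a simple epithelial keratin, had log2 values of 0.32 to 0.45 and was not called.

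FN1 stood at 3764, 3861 and 3328 CPM in GFP, at 4504, 3870 and 3560 in WT, at 4426, 3958 and 2092 in ΔGS and at 4552, 3829 and 3321 in ΔADAM. The library of ΔGS in experiment 3 was the lowest by a wide margin and the other 11 overlapped. The log2 fold changes were 0.11 ± 0.20, -0.09 ± 0.20 and 0.08 ± 0.20 (adjusted p = 0.85, 0.84 and 0.89). Without ΔGS of experiment 3 the ΔGS value was 0.15, and on the TPM scale, which divides by transcript length, it was 0.19, that library then having 1022 TPM against 1008 and 924 in the other ΔGS libraries. In that library the transcript FN1-213, of 3720 bases and 21 exons, took 42.0% of FN1 counts, against 10.3 to 24.3% in the other 11, while FN1-212, of 7952 bases, took 33.4% against 43.6 to 52.7%. Genes with long transcripts were lower in the same library, and the part of this in the FN1 and ZEB1 values was not tested.

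**Figure D3:**
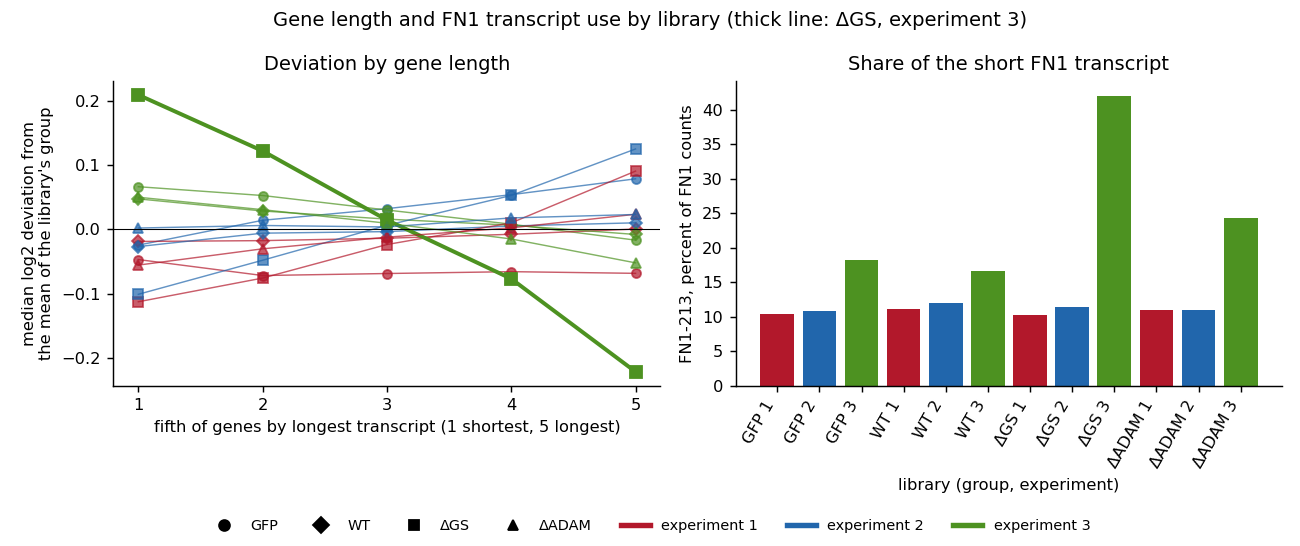
Left, the median log2 deviation of genes from the mean of their group in 5 classes of transcript length, 1 line per library (marker, group; colour, experiment; thick line, ΔGS of experiment 3); right, the percent of FN1 counts assigned to the transcript FN1-213 in each library. The thick line falls from 0.21 in the shortest class to -0.22 in the longest, and the same library has the highest FN1-213 share, 42.0%.

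A wider list of 25 genes of the invasive state and of YAP/TEAD or TGF-beta responses, which AXL-high melanoma cells express, was also examined. All 25 were tested. Calls in this list were all in the higher direction, led by THBS1 and AJUBA. With the batch term 1 was called in WT, 2 in ΔGS and 2 in ΔADAM, all higher, where 0.0397%, 0.278% and 0.616% of all genes were called higher. With a term for each experiment 9, 9 and 10 were called, all higher, where 1.66%, 2.81% and 3.15% of all genes were. At an unadjusted p under 0.05 with the batch term stood 10, 10 and 11, beside 15.2%, 19.2% and 20.4% of all genes. DESeq2 called 5, 7 and 7, beside 2.49%, 4.03% and 4.44%. The list's median log2 fold change was 0.19, 0.21 and 0.25 with the batch term, and 19, 18 and 19 of the 25 values were above 0. PDGFRB, named after its values were seen, had a lower mean with TYRO3, 1.94 TPM in GFP and 1.56, 1.29 and 1.42 in WT, ΔGS and ΔADAM. THBS1, the matrix glycoprotein thrombospondin 1, was called in all 3 comparisons with both fits. It stood at 603, 264 and 320 CPM in GFP of experiments 1, 2 and 3, at 1403, 624 and 585 in WT, at 1470, 598 and 548 in ΔGS and at 1574, 512 and 766 in ΔADAM. Within each experiment all TYRO3 libraries were above the GFP library, although the groups overlapped across experiments. Its log2 fold changes were 1.10 ± 0.15, 1.07 ± 0.15 and 1.21 ± 0.15 (edgeR adjusted p = 0.040, 0.029 and 0.018). The THBS1 calls with the batch term held in 4, 6 and 8 of the 12 fits that left out a library. Those with a term for each experiment held in all 12.

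AJUBA, a LIM protein that restrains the Hippo kinases upstream of YAP, stood at 22.4 to 24.8 CPM in GFP and at 45.5 to 92.8 in the 9 TYRO3 libraries, without overlap. It rose in ΔGS (1.48 ± 0.25, adjusted p = 0.047) and ΔADAM (1.61 ± 0.25, 0.033), and its change in WT was 1.32 ± 0.25 (0.087, and 0.0091 with a term for each experiment). The AJUBA calls with the batch term, in ΔGS and ΔADAM, held in 4 and 5 of the 12 fits that left out a library. PLAUR, the urokinase receptor, stood at 19.6 to 25.6 CPM in GFP and at 27.5 to 70.8 in the TYRO3 libraries, without overlap. Its log2 fold changes of 0.93 ± 0.23, 1.08 ± 0.23 and 0.99 ± 0.23 missed the threshold with the batch term (0.12, 0.056 and 0.057) and passed it in all 3 comparisons with a term for each experiment (0.049, 0.018 and 0.022). These PLAUR calls held in 2, 10 and 8 of the 12 fits that left out a library, in WT, ΔGS and ΔADAM. The genes below were named after their values were seen. With a term for each experiment AXL, the TAM receptor most tied to this state, rose by 0.81, 0.78 and 0.82 (each ± 0.15, adjusted p = 0.022, 0.016 and 0.012), and the YAP/TEAD targets ANKRD1, CTGF and CYR61 rose by 0.88 to 1.53 in the 3 comparisons. AMOTL2 and NT5E were also called in all 3, and EGFR in ΔADAM. The EGFR call held in 5 of the 12 fits that left out a library. Without GFP of experiment 1 the numbers called with a term for each experiment were 4, 7 and 6, and with the batch term 0, 0 and 0. AXL and NT5E then lost the call in all 3 comparisons, and THBS1, AJUBA, ANKRD1 and CYR61 kept it in all 3 with a term for each experiment. Without ΔGS of experiment 3 the batch term called 1, 1 and 5.

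**Figure D4:**
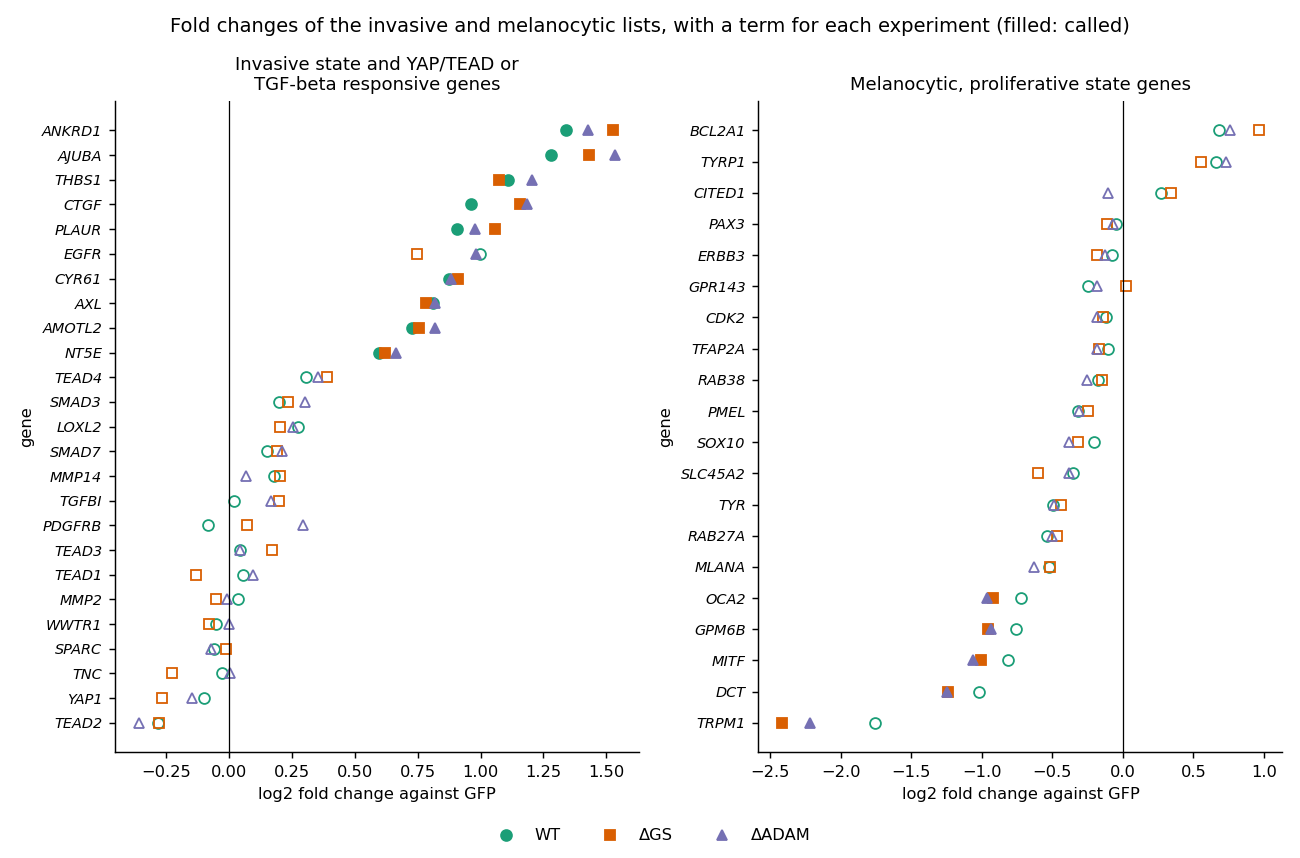
Log2 fold changes against GFP (x axis) from the fit with a term for each experiment, for the 25 genes of the invasive list (left) and the 20 of the melanocytic list (right), 1 row per gene and 1 marker per comparison (circle WT, square ΔGS, triangle ΔADAM; filled where called). On the left 9, 9 and 10 markers are filled, all to the right of 0, and on the right 0, 5 and 5, all to the left of it.

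In the melanocytic list, MITF and DCT were among the genes with the lowest p-values, and all calls were in the lower direction. Of its 20 genes, with the batch term 0 were called in WT, 0 in ΔGS and 1 in ΔADAM, where 0%, 0.179% and 0.497% of all genes were called lower. A term for each experiment gave 0, 5 and 5 calls, all lower, against 0.689%, 1.88% and 2.05% of all genes called lower. With the batch term 6, 7 and 9 had an unadjusted p under 0.05, beside 15.2%, 19.2% and 20.4% of all genes. DESeq2 called 2, 4 and 4, beside 2.49%, 4.03% and 4.44%. The median log2 fold change was -0.27, -0.28 and -0.34 with the batch term, and 3, 4 and 2 of the 20 values were above 0. Among the melanocytic markers summed by TPM above, TYRP1, named after its values were seen, was higher with TYRO3 instead. It stood at 0.251 to 1.33 TPM in GFP and at 1.402 to 3.81 in the TYRO3 libraries, without overlap. MITF, the master regulator of melanocytes, stood at 297, 310.0 and 339 CPM in GFP of experiments 1, 2 and 3, at 93.8, 230 and 257 in WT, at 122, 208 and 158 in ΔGS and at 104, 216 and 158 in ΔADAM, all below the GFP libraries. Its log2 fold changes were -0.82 ± 0.23, -1.01 ± 0.23 and -1.06 ± 0.23 (edgeR adjusted p = 0.14, 0.060 and 0.0497), and 0.067, 0.022 and 0.018 with a term for each experiment. The MITF call with the batch term held in 3 of the 12 fits that left out a library. With a term for each experiment its calls in ΔGS and ΔADAM held in 7 and 9. DCT, an enzyme of melanin synthesis, had log2 fold changes of -1.02 ± 0.31, -1.26 ± 0.31 and -1.27 ± 0.31, called in ΔGS and ΔADAM with a term for each experiment (0.030 and 0.029), as were TRPM1, GPM6B and OCA2, named after their values were seen. Over the same 12 fits, these calls held in 7 and 9 for DCT and 1 and 2 for TRPM1. They held in 8 and 8 for GPM6B and 4 and 8 for OCA2. RAB27A, which moves melanosomes, had log2 fold changes of -0.55 to -0.48 at folds under the threshold. Without GFP of experiment 1 none of the list was called in either design, and without ΔGS of experiment 3 the numbers with a term for each experiment were 0, 1 and 5.

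In the neural crest and dedifferentiation list, 11 genes were tested, NGFR included, and edgeR called 0 with the batch term, where 6, 6 and 7 had an unadjusted p under 0.05 and DESeq2 called 0, 1 and 1. Over all genes 15.2%, 19.2% and 20.4% had such a p, and DESeq2 called 2.49%, 4.03% and 4.44%. SOX9, a factor of the dedifferentiated state opposed to SOX10, stood at 0.510, 1.18 and 0.814 CPM in GFP of experiments 1, 2 and 3 and at 1.17 to 4.18 in the other 9 libraries, and was called in ΔGS (1.14 ± 0.31, adjusted p = 0.045) and ΔADAM (1.18 ± 0.31, 0.038) with a term for each experiment. Its GFP value in experiment 1 rested on 2 counts. Without that library SOX9 was not called in ΔGS (0.092) or ΔADAM (0.083), without ΔGS of experiment 3 it was not called in ΔGS (0.091), and its calls held in 2 and 3 of the 12 fits that left out a library. SOX2 and RXRG, of neural crest stem-like cells, had negative values instead, -0.82 to -0.78 and -0.50 to -0.38, and were not called in either fit.

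The comparison of WT TYRO3 with the mean of both variants asks whether a TYRO3 that can be cleaved acts differently on these genes. None of the 9 genes was called, with 0% of all genes called by edgeR, and 0 of the 9 had an unadjusted p under 0.05, beside 0.788% of all genes. DESeq2 called 1 gene of all, 0.00662%, and 0 of the 9. NGFR differed by 0.09 on the log2 scale, with a 95% interval of -0.71 to 0.89 with the batch term and of -0.36 to 0.40 with a term for each experiment, the latter leaving out a 1.5-fold difference. WNT5A differed by -0.01 (-1.19 to 1.17), JUN by 0.05 (-0.55 to 0.66) and CDH1 by 0.27 (-0.41 to 0.95), and each of these intervals holds differences beyond 1.5-fold in at least 1 direction. CDH2 (0.04, -0.15 to 0.23), VIM (-0.03, -0.28 to 0.23), ZEB1 (0.11, -0.25 to 0.46), TWIST1 (-0.06, -0.36 to 0.24) and FN1 (0.12, -0.25 to 0.50) had intervals within 1.5-fold either way.

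ΔGS and ΔADAM, which block cleavage at different steps, were also set against each other, and again 0 of the 9 genes were called, with 0% of all genes called, no unadjusted p under 0.05 among the 9, and 1 of all genes called by DESeq2. NGFR differed by -0.06 (95% interval -0.98 to 0.86), WNT5A by 0.26 (-1.09 to 1.62), CDH1 by 0.09 (-0.70 to 0.87) and JUN by 0.06 (-0.63 to 0.75), each interval wider than 1.5-fold in both directions. ZEB1 and FN1 had the most negative values, -0.21 (-0.62 to 0.20) and -0.17 (-0.61 to 0.26), and in both ΔGS of experiment 3 was the lowest library. CDH2 differed by -0.06 (-0.28 to 0.17), VIM by 0.06 (-0.23 to 0.36) and TWIST1 by 0.10 (-0.24 to 0.45).

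For each gene, the genes with the most alike pattern were found by Pearson's r of log2(CPM + 1) over the 12 libraries after subtraction of each experiment's mean, among 13260 genes with a mean of at least 1 CPM. For NGFR these were HOXC12 (r = 0.990), MOB3A (0.988) and FOXD1 (0.985). FOXD1, a forkhead factor, had mean CPM of 6.54 in GFP against 14.9, 16.2 and 15.9 in WT, ΔGS and ΔADAM. For WNT5A the protein-coding genes among them were PHGDH (0.983), an enzyme of serine synthesis with means of 172 against 318, 362 and 341 CPM, and MAGEA4 (0.982). FN1 was most like HEATR1 (0.995), ASH1L (0.993) and PRRC2B (0.992), whose mean CPM, like that of FN1, was lowest in ΔGS. ZEB1 was most like UHMK1 (0.994), HIPK1 (0.993) and WWC2 (0.989). VIM was most like SH3BGRL3, COPZ1 and NSUN5 (0.981, 0.969 and 0.967). The nearest genes of CDH1, CDH2, TWIST1 and JUN had r between 0.933 and 0.968. The points share the libraries, their depth and their experiments, so these values only describe likeness.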

How the data were processed

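The authors trimmed reads of polyA RNA (TruSeq Stranded mRNA) with Trimmomatic 0.33 and quantified them with kallisto 0.46.0 against Ensembl 96 transcripts. The deposited files give an estimated count and a TPM value per transcript, the TPM scaled by the authors for effective length and library total. Here both were summed per gene through the GENCODE 29 names. Of 188753 transcripts, 169797 matched and 18956 did not, and the matched ones held 97.41 to 97.53% of the counts. Estimated counts were rounded and tested with edgeR 4.0.16 (R 4.3.3, limma 3.58.1): TMM scaling, filterByExpr with a minimum count of 10 and total of 15, and the quasi-likelihood test on 4 groups with a term for experiment 1, a batch that the authors corrected with batchelor, testing transcripts with DESeq2. Adjusted p-values are Benjamini-Hochberg values over all 15098 genes of a comparison. The experiment number comes from the labels. Deviations from group means correlated in all 18 same-experiment pairs (0.187 to 0.713, against -0.545 to 0.0257 in other pairs), so a term for each experiment was also fitted. Alternatives were DESeq2 1.42.0, limma on log2(TPM + 1) and log2(TPM + 0.1), other filters and designs, and leaving out each library. Ratios of low counts have exact 95% binomial intervals, which cover counting error only. Totals of 4008293 to 38184838 set the precision: 1 count was 0.255 CPM in GFP of experiment 1 and 0.0274 to 0.0551 elsewhere. Tested on simulated data for WT against GFP with 200 genes changed 4-fold, edgeR recovered 181 with 10 false calls of 14904 genes with the batch term, and 183 with 12 of 14893 with a term for each experiment. The simulated counts held no differences between experiments and only 4-fold changes. They do not show the recovery of smaller changes, or the false calls where libraries of an experiment deviate together. The 9 genes and all lists were chosen with earlier results of these data known. In each list the 3 genes with the smallest largest p over the 3 comparisons with GFP were named, and those called with the batch term. A few genes of 2 lists, those of NGFR partners and of the invasive state, are not reported here and were taken out of these lists after their values were seen, but not for their values.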

Additional observations from a re-analysis of the deposited data

How the results depend on the processing

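A term for each experiment, called the replicate block here, called 355, 708 and 784 of all genes and 1, 2 and 1 of the 9 in WT, ΔGS and ΔADAM against GFP, with JUN at -0.014 in ΔGS. It changed no call among the 9 other than NGFR in all 3 and WNT5A in ΔGS. DESeq2 called 376, 609 and 670 genes and 1 in each contrast among the TYRO3 groups, with JUN at 0.0035 in ΔADAM. Without a filter edgeR called 562, 765, 879, 6 and 5 genes over the 5 comparisons and 1 of the 9 against GFP each time. At least 10 counts in every library gave 107 genes in ΔGS and dropped WNT5A and CDH1. Without the batch term 3, 4 and 5 genes were called, WNT5A in WT against both variants was 0.020 and JUN in ΔADAM 0.11. Fits of only the groups compared called 1, 1 and 11. limma on TPM called 2, 6 and 20 genes with a pseudocount of 0.1 and 2, 1 and 43 with 1, where FN1 in ΔGS was 0.19 under both, JUN in ΔADAM 0.20 and 0.18, WNT5A in WT against both variants 0.33 and 0.11, and WNT5A in ΔGS against ΔADAM -0.17 and -0.091. Experiments 2 and 3 alone called 1 gene in each comparison with GFP, with NGFR in WT against both variants at -0.054, ZEB1 in ΔGS at -0.13, TWIST1 in ΔGS at 0.065, and JUN at -0.060 in WT and -0.36 in ΔGS. Chosen after seeing the data, the same experiments with the block called 47, 189 and 218 genes in WT, ΔGS and ΔADAM and 0 of the 9. Those values became -0.19, -0.15, 0.048, -0.032 and -0.37. Also chosen then, DESeq2 with the block called 610, 830, 875, 5 and 1 genes and 1, 2 and 1 of the 9, with JUN at 0.0063 in ΔADAM.

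Over fits that left out 1 library, with and without the block, calls ranged from 1 to 606 in WT, 1 to 777 in ΔGS and 1 to 870 in ΔADAM, 0 to 2 of the 9 in each, and 0 to 1 gene in ΔGS against ΔADAM. NGFR ran from -0.28 to 0.46 in WT against both variants and -0.32 to 0.10 in ΔGS against ΔADAM. CDH1 ran from -0.68 to 0.10 in WT. CDH2 ran from -0.064 to 0.068 in WT, -0.13 to 0.049 in ΔGS and -0.052 to 0.047 in ΔADAM. FN1 ran from -0.31 to 0.15 in ΔGS and -0.0023 to 0.19 in ΔADAM. ZEB1 ran from -0.14 to 0.28 and TWIST1 from -0.33 to 0.050 in ΔGS. WNT5A ran from -0.37 to 0.40 in WT against both variants and -0.11 to 0.60 in ΔGS against ΔADAM. JUN ran from -0.22 to 0.44 in WT, -0.27 to 0.41 in ΔGS and -0.32 to 0.35 in ΔADAM. The cause was not tested for any of these shifts. Depth limits WNT5A and CDH1, which had under 60 counts in every library, and GFP of experiment 1.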
